A study of Lactuca sativa with 53 samples.

Results

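LsAP2.21 is a gene of the AP2 subfamily of AP2/ERF transcription factors in lettuce (*Lactuca sativa*), and its transcript was followed here through salt, heat and drought. It was taken as a single row, Lsat_1_v5_gn_8_117021.1, of the 23292 genes listed for the cultivar Salinas. The gene was chosen by its values under salt relative to the control in these same libraries, so its levels under salt, and their difference from the control, are given as a description without a test. RNA of 18-day-old Salinas plants was sequenced in 30 libraries, with 3 biological replicates in each of 10 groups. The stressed plants were sampled at 5 h, 24 h and 48 h of salt (250 mM NaCl), of heat (34 °C) or of drought (water withheld after the pots had drained), and the control plants, grown at 20 °C, were sampled at 0 h. No mutant or transgene is involved, and the groups differ by design in treatment and time. In the study's methods, the light during the stress treatments was weaker than that during growth. The tissue is called leaf in the study's methods and aerial tissue in the labels, and it was not checked against markers because the files do not pair their IDs with gene names. The 23 libraries of the cultivars PI284702 and UC96US23, with or without cold, were not analysed here for this gene.

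Proteins of the AP2/ERF family bind DNA through the AP2 domain, a fold that reads short elements in promoters. DREB and ERF members act mainly in responses to drought, cold, salt and pathogens, whereas AP2 members, which usually carry a repeated AP2 domain, are known mostly for roles in development, such as floral organ identity, meristem growth and embryo formation. In the study's protein comparison, the closest *Arabidopsis thaliana* protein to LsAP2.21 was AT3G54320 (WRINKLED1, WRI1), which in *Arabidopsis* seeds switches on genes of glycolysis and plastid fatty acid synthesis. A role of LsAP2.21 itself was not tested in these data.

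LsAP2.21 was placed by the study's list of family genes on the forward strand of linkage group 8 of the version 8 genome, between positions 179269341 and 179271811. The model has 4 exons of 149, 83, 89 and 129 bases, which together make a coding length of 450 bases, and introns of 91, 1546 and 384 bases. With 450 bases, it was the shortest of the 28 AP2 subfamily genes of the list, whose coding lengths had a median of 1390.5 bases and a maximum of 1968 bases. It was also 1 of 4 genes of the subfamily annotated with a single AP2 domain, against 24 annotated with 2. An exon of 83 bases together with an exon of 89 bases was found in 13 of the 28 genes, LsAP2.21 included, and in 0 family genes outside the subfamily. LsAP2.05, LsAP2.08 and LsAP2.18 had the same closest *Arabidopsis* protein.

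Values are scaled CPM, that is, counts per 1000000 reads of a library size that the authors scaled by a factor per library. Dividing a value by the step of its library returned whole reads, which are given beside it. The libraries held 19144717 to 29521313 gene-assigned reads (median 23710564), and a single read was worth between 0.0300 and 0.0619 scaled CPM. The deposited values summed to between 1207464.4 and 1273638.4 in the libraries at 48 h of salt, against 845077 to 858082.5 in the control libraries, so that the scaling itself raised salt 48 h by 1.46-fold relative to the control. In these bulk samples, more RNA of this gene per cell and more cells that express it cannot be told apart.

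Under salt, the level was highest at the last sampling time. At 48 h of salt, LsAP2.21 had 6.59, 6.19 and 3.90 scaled CPM in replicates 1, 2 and 3, from 129, 100 and 75 reads. The libraries at 24 h of salt had 2.00, 3.50 and 2.30 scaled CPM, from 45, 74 and 52 reads. At 5 h of salt, it had 0.728, 0.537 and 0.541 scaled CPM, from 20, 16 and 16 reads. The 3 times did not overlap, and the closest libraries of neighbouring times were replicate 3 at 48 h and replicate 2 at 24 h. In the control, the gene had 0.269, 0.0721 and 0.169 scaled CPM, from 6, 2 and 4 reads, below every salt library. Of all genes tested, 28.2% likewise had all 3 libraries at 5 h of salt above all control libraries, 36.7% at 24 h and 41.5% at 48 h.

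The mean was 5.56 ± 1.45 scaled CPM at 48 h of salt, 2.60 ± 0.792 at 24 h and 0.602 ± 0.109 at 5 h, against 0.170 ± 0.098 in the control (SD, n = 3 each). The ratio of pooled levels to the control was 3.68 at 5 h of salt (95% counting interval 1.94 to 7.58), 15.8 at 24 h (8.84 to 31.3) and 34.0 at 48 h (19.2 to 66.5). These exact intervals cover counting error only, and they are wide because 12 reads in all were counted in the control. With each library scaled to 1000000 reads, the ratio of means to the control was 22.3 at 48 h of salt and 12.8 at 24 h. On the log2(scaled CPM + 0.5) scale, which understates the change of a gene near 0, the differences from the control were 0.72 at 5 h, 2.19 at 24 h and 3.16 at 48 h.

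Under heat, the levels stayed near those of the control apart from a single library. At 5 h of heat, LsAP2.21 had 0.0367, 0.412 and 0.0732 scaled CPM, from 1, 13 and 2 reads, so that replicate 2 stood above every other library outside salt. At 24 h of heat, the values were 0.131, 0.180 and 0.183 scaled CPM, from 4, 5 and 6 reads. At 48 h of heat, they were 0.0703, 0.109 and 0.0712 scaled CPM, from 2, 3 and 2 reads, and this group had the lowest mean of the 10. All 3 heat groups overlapped the control libraries.

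Under drought, the levels also lay near those of the control. At 5 h of drought, the gene had 0.0981, 0.0733 and 0.154 scaled CPM, from 3, 2 and 4 reads. At 24 h of drought, it had 0.0707, 0.0799 and 0.125 scaled CPM, from 2, 2 and 4 reads. At 48 h of drought, it had 0.0698, 0.120 and 0.279 scaled CPM, from 2, 4 and 8 reads, and replicate 3 lay just above the highest control library. Each drought group overlapped the control.

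**Figure D1:**
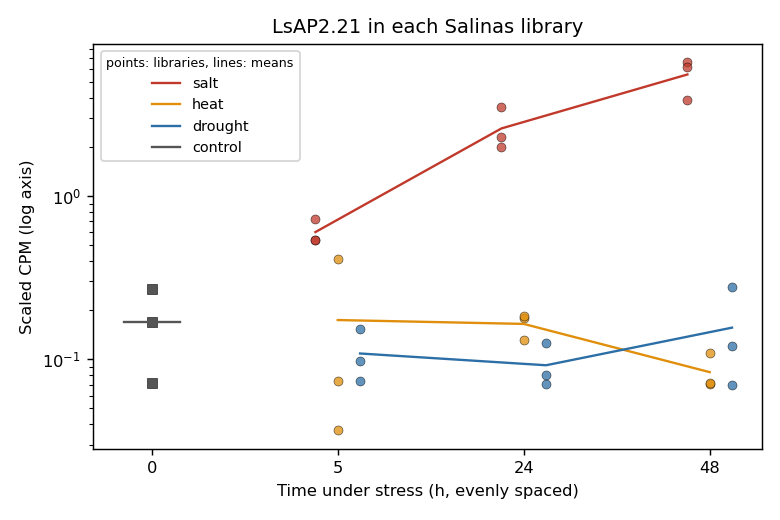
Scaled CPM of LsAP2.21 (log axis) against time under salt, heat or drought, with a point for each of the 30 Salinas libraries and lines through group means. The 9 salt libraries lie between 0.537 and 6.59 and above all others, the highest of which is replicate 2 at 5 h of heat with 0.412.

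Ordered by mean level, the groups ran from 48 h, 24 h and 5 h of salt to 5 h of heat (0.174 ± 0.207 scaled CPM), the control (0.170 ± 0.098), 24 h of heat (0.165 ± 0.029), 48 h of drought (0.156 ± 0.109), 5 h of drought (0.109 ± 0.042), 24 h of drought (0.0920 ± 0.029) and 48 h of heat (0.0834 ± 0.022; SD, n = 3 each). Each salt group was separate from the next group in this order. From 5 h of heat downwards, every group overlapped the next. The spread of reads between replicates was 7.25 times that of counting alone at 48 h of salt and 5.27 times at 24 h of salt, against 0.559 times at 5 h of salt and 1.48 times in the control. The ratio was 6.91 at 5 h of heat, where 13 of the 16 reads came from replicate 2.

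Whether the level under salt differed from that under heat or drought was asked directly, at the same time after the start of treatment. Such a comparison uses no control library, so the clock time of the 0 h harvest does not enter it, and it equals the difference between the responses to the 2 stresses. All 30 libraries were fitted together with limma on log2(scaled CPM + 0.5) over 23231 genes, with Benjamini-Hochberg adjustment. A difference was called at an adjusted p of 0.01 or less and at least 1 in size, the thresholds of the study's methods. Because the gene was picked for its salt pattern in these libraries, the p-values below are not independent evidence of that pattern.

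At 48 h, LsAP2.21 was higher under salt than under heat by 3.35 on the log2 scale (95% interval 2.93 to 3.77, adjusted p = 1.03e-13 by limma), with 3 of 3 salt libraries above all heat libraries, as for 39.3% of all genes. Among all genes tested, 19.8% were called higher under salt than under heat at this time. The pooled levels stood in a ratio of 66.5 (counting interval 31.9 to 167), from 304 reads under salt and 7 under heat. Against drought at 48 h, the difference was 3.19 (interval 2.77 to 3.61, adjusted p = 2.37e-13 by limma), with 19.2% of all genes called higher and 40% separated in this way. The ratio of pooled levels was 35.8 (21.0 to 66.3). On this log2 scale, the difference from heat ranked 986 and that from drought 1023 from the highest among the 23231 genes. Such ranks depend on the 0.5 added to each value, which draws values near 0 together.

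At 24 h, the difference was 2.19 between salt and heat (interval 1.77 to 2.61, adjusted p = 9.22e-10 by limma), where 13.6% of genes were called higher under salt. Between salt and drought, it was 2.36 (interval 1.94 to 2.78, adjusted p = 1.96e-10 by limma), where 14.9% were called higher. The 3 salt libraries lay above all 3 libraries of each other stress, as for 33.5% of all genes against heat and 35% against drought. The pooled levels differed 15.6-fold between salt and heat (counting interval 9.22 to 28.6) and 27.5-fold between salt and drought (13.6 to 64.7). All 4 differences at 24 h and 48 h were called under each of the 15 alternatives computed for each of them.

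At 5 h, the differences were smaller and were not called. LsAP2.21 was higher under salt than under heat by 0.75 (interval 0.33 to 1.17, adjusted p = 0.00289 by limma) and higher than under drought by 0.85 (interval 0.44 to 1.27, adjusted p = 0.00257 by limma), both under the size threshold of 1. Of all genes, 7.44% were called higher under salt than under heat at 5 h and 3.46% higher than under drought. No salt library overlapped those of heat or drought, which held for 31.1% and 25.5% of all genes in the same direction. The size on this scale depended on the pseudocount, and the pooled levels differed 3.22-fold from heat (counting interval 1.81 to 6.05) and 5.58-fold from drought (2.72 to 12.9). Both were called with a pseudocount of 0.1 (1.60 and 1.76), by edgeR's quasi-likelihood test on the reads (1.71 and 2.44) and by DESeq2 (1.74 and 2.48). Without replicate 2 at 5 h of heat, the difference from heat was 0.99. Leaving out each library gave 0.60 to 0.99 from heat and 0.77 to 0.91 from drought. The highest adjusted p of these fits were 0.0255 and 0.0181 by limma. With a pseudocount of 2, the differences were 0.26 and 0.30, with adjusted p of 0.0404 and 0.0352 by limma. In some alternatives, size was thus not the only threshold missed.

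**Figure D2:**
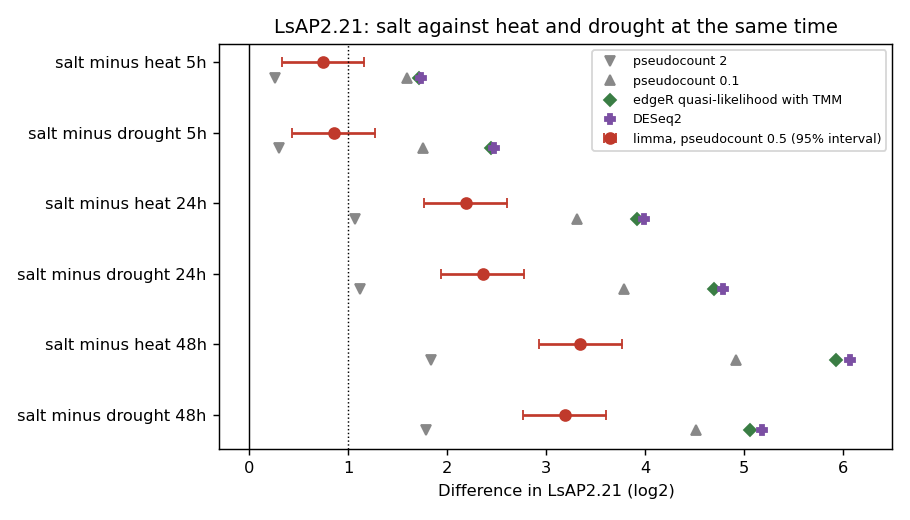
Difference in LsAP2.21 between salt and heat or drought at the same time (log2), with the limma estimate and its 95% interval and the estimates under 2 other pseudocounts, edgeR and DESeq2. All 6 differences are above 0, those at 24 h and 48 h are above the dotted threshold of 1 by every method drawn, and those at 5 h fall on either side of it.

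Within salt, the level was higher at each later sampling time, which is given as a description because the gene was chosen by its salt values. The difference between 24 h and 5 h of salt was 1.47 (interval 1.05 to 1.88), where 10% of all genes were called higher at 24 h and 31.6% had separate groups in this direction. That between 48 h and 24 h was 0.97 (interval 0.55 to 1.39), just under the size threshold, where 5.32% were called higher at 48 h and 27% were separate. It passed both thresholds in 3 of 15 alternatives, which were DESeq2 (1.11), without salt 24 h replicate 2 (1.17) and without salt 48 h replicate 3 (1.18). By edgeR (1.07) and with a pseudocount of 0.1 (1.07), it passed the size but not the p threshold. With each library scaled to 1000000 reads, it was 0.70. The pooled levels differed 2.15-fold between 48 h and 24 h of salt (counting interval 1.77 to 2.60) and 4.31-fold between 24 h and 5 h of salt (3.14 to 5.99).

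Neither heat nor drought moved the gene past the thresholds relative to the control. The log2 differences were -0.02 at 5 h, -0.0015 at 24 h and -0.19 at 48 h under heat (adjusted p = 0.942, 0.997 and 0.442 by limma). Under drought they were -0.13 at 5 h, -0.17 at 24 h and -0.03 at 48 h (adjusted p = 0.81, 0.77 and 0.931 by limma). The highest upper bound of the 6 intervals was 0.42, at 24 h of heat, so a rise of the size seen at 5 h of salt (0.72) lay outside each of them. A fall could not be called on this scale, because with the pseudocount of 0.5 even a loss of all reads from the control level stays under the size threshold of 1. By edgeR and DESeq2, which use no such pseudocount, the differences were -0.95 and -0.99 for heat at 48 h, -0.60 and -0.64 for drought at 5 h and -0.79 and -0.82 for drought at 24 h, with adjusted p between 0.268 and 0.728 and none called. The ratio of pooled levels to the control was 0.512 for heat at 48 h (counting interval 0.171 to 1.41), 0.660 for drought at 5 h (0.246 to 1.71) and 0.577 for drought at 24 h (0.205 to 1.53). Heat called 3.67%, 4.86% and 5.85% of all genes higher at 5 h, 24 h and 48 h, and drought 0.542%, 0.0947% and 1.89%. Lower calls were made for 2.36%, 5.54% and 8.23% of genes under heat and 0.237%, 0.099% and 1.33% under drought. The sign turned without control replicate 1 for heat at 5 h (0.08), heat at 24 h (0.10) and drought at 48 h (0.07). It also turned for heat at 5 h without its replicate 1 (0.12) or 3 (0.07), for heat at 24 h without its replicate 1 (0.04) or control replicate 3 (0.0024), and for drought at 48 h without its replicate 1 (0.06) or 2 (0.0028).

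Of the genes with the same closest *Arabidopsis* protein, LsAP2.05 was the only other analysed here. Its levels can be compared with those of LsAP2.21 only per length, as scaled CPM per kb of coding length. This length leaves out untranslated regions, and whether reads on them were counted is not given in the sources used here. Levels per kb are therefore approximate, here and for the subfamily below. At 48 h of salt, LsAP2.21 had 12.4 ± 3.23 and LsAP2.05 had 2.73 ± 1.43 scaled CPM per kb (SD, n = 3 each). After 24 h of salt, LsAP2.21 had 5.77 ± 1.76 and LsAP2.05 4.67 ± 2.59 scaled CPM per kb, and the libraries of the pair overlapped. In the control, LsAP2.21 had 0.378 ± 0.219 and LsAP2.05 1.60 ± 0.082 scaled CPM per kb. The order of the pair at 48 h of salt was thus the opposite of that in the control.

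LsAP2.05 did not differ between salt and the other stresses by the thresholds used. Its difference at 48 h was -0.55 from heat and -0.59 from drought (adjusted p = 0.0936 and 0.0735 by limma), and at 24 h it was 0.67 from heat and 0.58 from drought (adjusted p = 0.0472 and 0.081 by limma). Relative to the control, LsAP2.05 was called higher at 24 h of salt (1.17) and at 48 h under both heat (1.09) and drought (1.13). The adjusted p were 0.00115, 0.00324 and 0.00715 by limma. Its replicates at 24 h of salt spread widely, with 7.64, 2.13 and 5.17 scaled CPM, against 1.64 to 1.80 in the control. Over the 30 libraries, Pearson's r between the log2 values of both genes was 0.12, given as a description, since all points share the same libraries and their scaling. The difference in response between LsAP2.21 and LsAP2.05 was not tested.

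**Figure D3:**
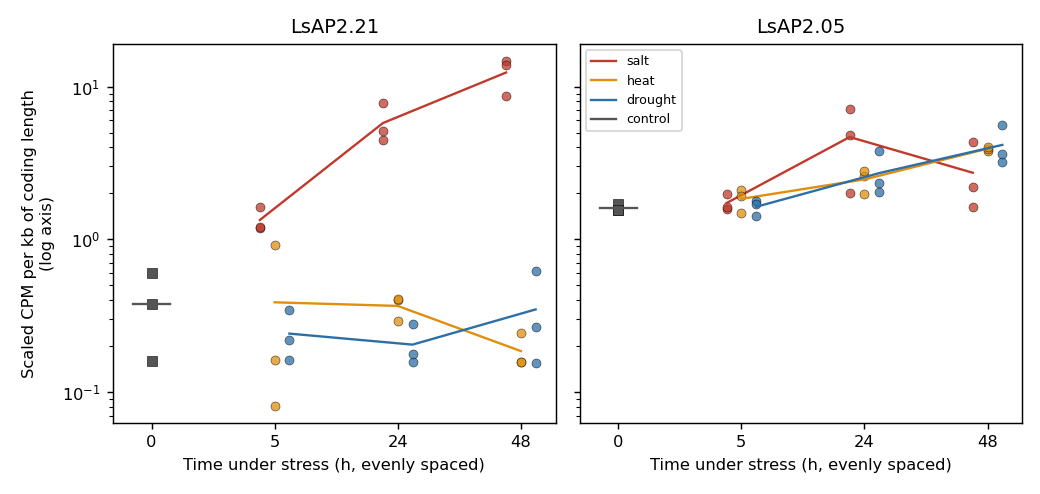
Scaled CPM per kb of coding length (log axis) of LsAP2.21 and LsAP2.05 against time under salt, heat or drought, with a point for each library and lines through group means. LsAP2.21 averages 12.4 at 48 h of salt and stays under 1 in all heat, drought and control libraries, whereas LsAP2.05 at 48 h averages 2.73 under salt, 3.92 under heat and 4.15 under drought.

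Of the 28 AP2 subfamily genes of the list, 23 were listed for Salinas and all 23 were tested. Per kb of coding length, LsAP2.21 ranked 22 of 23 from the highest in the control, with 0.378 scaled CPM per kb against a median of 6.34. Its rank was 20 at 5 h of salt, 10 at 24 h of salt and 6 at 48 h of salt, where the median was 2.90 scaled CPM per kb. The ranks under salt are a description, since the gene was chosen by its salt values. Under heat and drought it ranked 21 or 22 in every group. LsAP2.13 was the most abundant at 48 h of salt, with 34.5 scaled CPM per kb.

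In each comparison between salt and another stress, most of the other 22 members were not called. At 48 h, 1 of them was called higher and 6 lower under salt than under heat, with a median of -0.59 against -0.08 over all genes, and 1 was higher and 8 lower than under drought, with a median of -0.79 against -0.01. Over all genes, 19.8% were called higher under salt than under heat and 19.2% higher than under drought. In each of these comparisons, 21.2% were called lower. At 24 h, 1 was higher and 0 were lower than under heat, and 0 were higher and 4 lower than under drought. Of all genes at 24 h, 13.6% were called higher and 11.1% lower than under heat, and 14.9% higher and 13.9% lower than under drought. At 5 h, 0 were called in either direction in both comparisons by limma. Of all genes at 5 h, 7.44% were called higher and 5.89% lower than under heat, and 3.46% higher and 0.654% lower than under drought. By limma, none of the 22 had a larger log2 difference than LsAP2.21 in either comparison at 24 h or 48 h. Between salt and heat at 5 h, 2 of them did. This order depends on the pseudocount, and LsAP2.21 was chosen by its salt values, so its place is given as a description.

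LsAP2.16 was the other member called higher under salt at 48 h, and is named after its values were seen. Its closest *Arabidopsis* protein is AT5G17430 (BABY BOOM), known from embryo formation. LsAP2.16 had 3.12, 4.02 and 2.86 scaled CPM at 48 h of salt, against 0.0703, 0.109 and 0 at 48 h of heat. The difference was 2.77 (adjusted p = 1.89e-10 by limma). By ratio of means at 48 h, LsAP2.16 stood above LsAP2.21 for salt against drought and below it for salt against heat. At 48 h of drought, LsAP2.21 averaged 0.156 scaled CPM, while LsAP2.16 averaged 0.0732, from 0 to 5 reads per library. The values of LsAP2.16 at 24 h of salt were 0, 0.756 and 0.0883 scaled CPM, from 0, 16 and 2 reads. LsAP2.16 was thus near 0 in 2 libraries at a time when LsAP2.21 had at least 45 reads in each.

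In the opposite direction, 6 members were called lower under salt than under heat at 48 h. They were LsAP2.03, LsAP2.10, LsAP2.12, LsAP2.17, LsAP2.24 and LsAP2.27, also named after their values were seen. LsAP2.10, LsAP2.12 and LsAP2.27 have AT4G37750 (AINTEGUMENTA), a regulator of organ growth in *Arabidopsis*, as closest protein. That of LsAP2.03 and LsAP2.17 is AT4G36920, and that of LsAP2.24 is AT2G28550. LsAP2.10, LsAP2.12 and LsAP2.27 were lower by -2.49, -1.82 and -1.86 on the log2 scale, with adjusted p of 1.05e-11, 1.79e-10 and 5.32e-11 by limma. LsAP2.10 had 0.415 ± 0.241 scaled CPM under salt and 4.65 ± 1.32 under heat at that time (SD, n = 3 each). The single member called higher under salt than under heat at 24 h, named likewise, was LsAP2.06 (1.04, adjusted p = 0.000636 by limma).

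**Figure D4:**
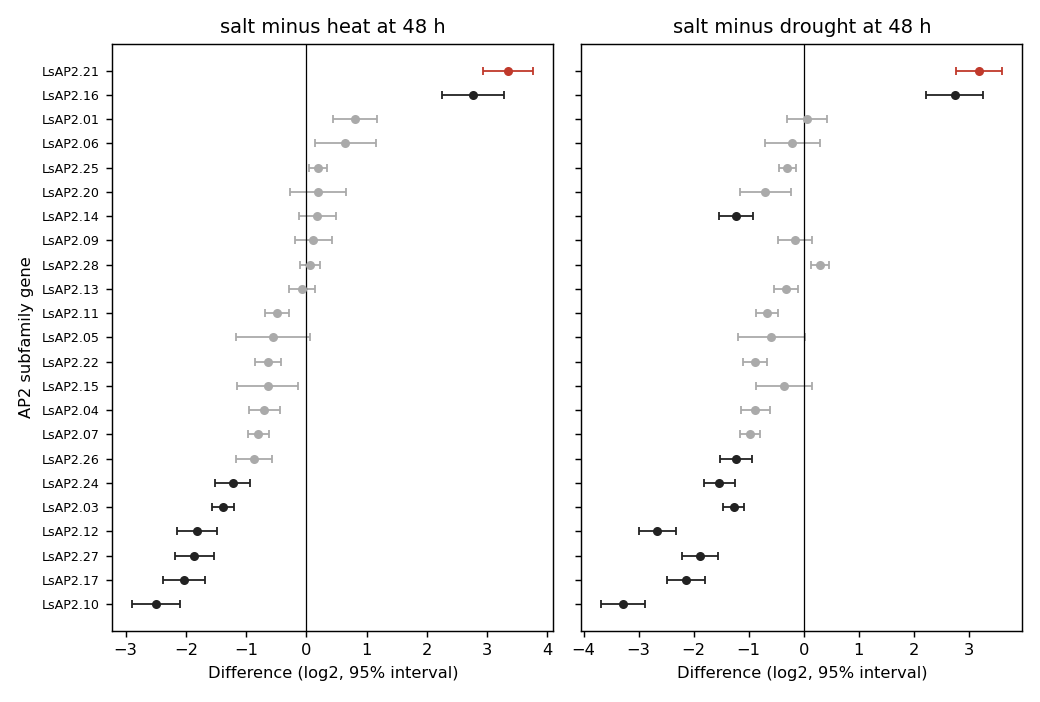
Difference between salt and heat and between salt and drought at 48 h (log2, limma, bars are 95% intervals) for the 23 AP2 subfamily genes, ordered by the difference from heat. LsAP2.21 is in red, other called genes are in black and the rest in grey. On this scale, which depends on the pseudocount, LsAP2.21 has the highest value in both panels (3.35 and 3.19), followed by LsAP2.16 (2.77 and 2.74). LsAP2.21 was chosen by its salt values.

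The genes most like LsAP2.21 were found by Pearson's r over the 30 Salinas libraries on log2(scaled CPM + 0.5), as a description. The r was above 0.9 for 2645 of the 23230 other genes tested (11.4%) and for 30 of 152 other AP2/ERF genes (19.7%), so a high r by itself was common. The points share libraries, scaling and the step between salt and the remaining groups. The highest r over all genes was 0.984 for Lsat_1_v5_gn_9_93021.1, followed closely by 0.982 for Lsat_1_v5_gn_4_48100.1 and 0.981 for each of the next 3 genes. The files do not pair these IDs with names. Lsat_1_v5_gn_9_93021.1 had 90.1 ± 23.6 scaled CPM at 48 h of salt and 0.343 ± 0.109 in the control, and Lsat_1_v5_gn_4_48100.1 had 346 ± 40.4 scaled CPM at 48 h of salt and 80.4 ± 6.69 in the control (SD, n = 3 each).

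Among the AP2/ERF genes, those most like it were LsERF182 (r = 0.976), LsERF015 (0.974), LsERF154 (0.970), LsERF077 (0.969) and LsERF183 (0.964), which ranked between 36 and 297 among all genes. LsERF154, LsERF182 and LsERF183 belong to ERF subgroups and LsERF015 and LsERF077 to DREB subgroups, so none is of the AP2 subfamily, in which the highest r was 0.84 (LsAP2.16). Within the 9 salt libraries alone, r was 0.97 for LsERF182, 0.95 for LsERF015, 0.98 for LsERF154, 0.97 for LsERF077 and 0.92 for LsERF183. By that measure they ranked between 1059 and 4255 of 23230 genes, so many genes were at least as alike. LsERF182 had 47.5, 60.5 and 51.6 scaled CPM at 48 h of salt, against 0, 0.0721 and 0 in the control. LsERF183 had 52.5, 65.7 and 69.6 scaled CPM at 48 h of salt, against 0, 0.0721 and 0 in the control.

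Since the 5 genes were chosen for their likeness to LsAP2.21 over the same libraries, their higher levels under salt follow from that choice. By limma, their log2 differences between salt and the other stresses at 48 h lay between 5.17 (LsERF154, from drought) and 7.42 (LsERF077, from heat). Those of LsAP2.21 were 3.35 from heat and 3.19 from drought. Ranks between genes on this scale are no measure of relative change, because its pseudocount draws values near 0 together. At 48 h of heat, LsAP2.21 averaged 0.0834 scaled CPM and LsERF154 averaged 5.02. By edgeR, which uses no such pseudocount, the differences of LsAP2.21 were 5.93 from heat and 5.06 from drought. In the libraries at 24 h of salt, replicate 2 was the highest of the 3 libraries for LsAP2.21 and for each of the 5. LsERF077, for example, had 93.8 scaled CPM in that library, against 10.7 and 32.1 in replicates 1 and 3. At 48 h of salt, replicate 3 was the lowest library for LsAP2.21 but not for LsERF182, LsERF015, LsERF077 or LsERF183.

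**Figure D5:**
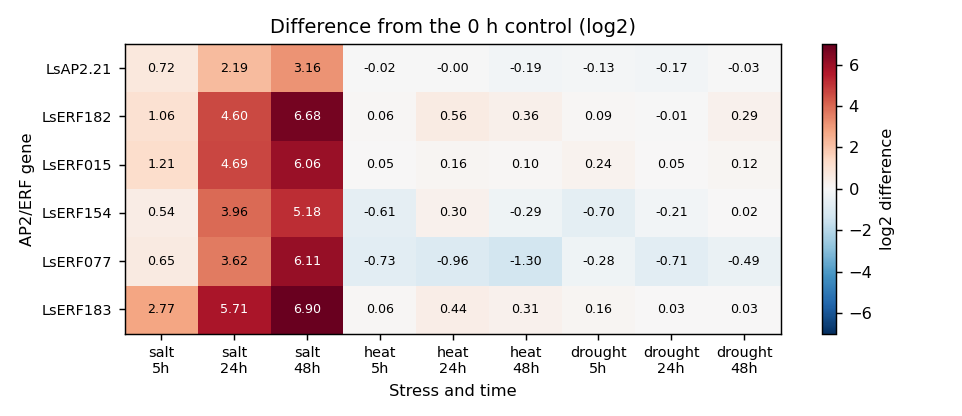
Log2 difference from the 0 h control on the log2(scaled CPM + 0.5) scale for LsAP2.21 and the 5 AP2/ERF genes most like it, under salt, heat and drought at 3 times, with the value printed in each cell. LsAP2.21 reaches 3.16 at 48 h of salt and stays between -0.19 and -0.0015 under heat and drought. Its value at 48 h of salt depends on the pseudocount (4.42 with 0.1 and 1.78 with 2). Values of genes with 3 reads or fewer in every control library (LsERF182, LsERF015 and LsERF183) depend on it too.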

How the data were processed

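Leaf RNA of Salinas was sequenced by the authors as 150-base paired-end reads, aligned to the lettuce genome version 8 with STAR 2.5.2 and counted per gene with featureCounts, and edgeR is named for their tests. Strandedness of the counting is not given in the sources used here. The deposited signal per gene is counts per 1000000 reads of a scaled library size, and the scaling method is not stated. Removing the step of each library gave whole reads (within 0.01) for 100% of values, and these served for depths, counting intervals (exact, 95%), edgeR and DESeq2. Replicates differed by more than counting noise (chi-square per gene between 3.60 and 73.7).

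The test covered 23231 genes that reached 0.5 scaled CPM in 2 or more libraries. The limma package (3.58.1, R 4.3.3, with trend) was applied to log2(value + 0.5) of all 30 libraries. The design had assumed CPM without a further scale, and its log-scale test was kept. Other settings tried were pseudocounts of 0.1 and 2, all listed genes, median-centred libraries, libraries scaled to 1000000, only the groups compared, a block for replicate number, DESeq2 1.42.0, edgeR 4.0.16 and leaving out each library. The limma and edgeR fits were tested on simulated counts. Figures used Python 3.11.15 and matplotlib 3.10.9.

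Positions, names and closest *Arabidopsis* proteins come from the study's gene lists, and 157 of 224 family genes were matched by ID. The named genes are LsAP2.21, analysed genes with its closest *Arabidopsis* protein and, by Pearson's r, the AP2/ERF genes most like it (5) and unnamed IDs (2). Others are said to be named after their values were seen. LsAP2.21, the lists and the tests were chosen with earlier results of these data known. Lists that needed gene descriptions (fatty acid synthesis enzymes, leaf and root markers) could not be matched to the IDs and were not used. Cold libraries were not analysed here.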

Additional observations from a re-analysis of the deposited data

Results flagged for a closer look

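The level of LsAP2.21 under salt differed between sampling times. The gene was chosen by its salt values in these libraries, so both differences are given as a description and are no independent evidence. The level at 24 h of salt was higher than at 5 h by 1.47 on the log2 scale, and 14 of 15 alternatives passed the thresholds, the exception being a pseudocount of 2. The level at 48 h of salt was higher than at 24 h by 0.97, under the size threshold, and 3 of 15 alternatives passed both thresholds. In both comparisons all 3 later libraries lay above all 3 earlier ones, as did 31.6% and 27% of all genes.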

How the results depend on the processing

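Of 255 alternative values of 17 results, 220 were kept, which means the same direction and side of the thresholds for the 14 results with a call, and a move smaller than the spread between replicates for the 3 differences between salt and control. The differences of LsAP2.21 between salt and heat or drought at 24 h and 48 h were called in all of theirs. At 5 h, the differences from heat and drought passed the threshold with a pseudocount of 0.1 (1.60 and 1.76), by edgeR (1.71 and 2.44) and by DESeq2 (1.74 and 2.48). With a pseudocount of 2, they were 0.26 and 0.30, with adjusted p of 0.0404 and 0.0352 by limma. Relative to the control, the salt values at 5 h, 24 h and 48 h were 1.44, 3.35 and 4.42 with a pseudocount of 0.1, 0.26, 1.07 and 1.78 with 2, 1.84, 3.91 and 4.98 by edgeR and 1.84, 3.96 and 5.08 by DESeq2. The pseudocount sets how far values near 0 are drawn together. Between 24 h and 5 h of salt, the difference was 0.81 with a pseudocount of 2 and was not called. Between 48 h and 24 h of salt, DESeq2 called 1.11, and leaving out each library gave 0.83 to 1.18. Differences near 0 changed sign. At 5 h of heat relative to the control, the value was 0.13 by edgeR and 0.10 by DESeq2, and -0.26 to 0.12 without each library. At 24 h of heat it was 0.035 with a pseudocount of 0.1, 0.013 with libraries scaled to 1000000 and -0.11 to 0.10 without each library. At 48 h of drought, leaving out each library gave -0.16 to 0.073. The causes of these sign changes were not tested.

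The replicate number as a block changed no call (salt against heat at 48 h, 3.35, adjusted p = 7.66e-13 by limma). Residuals of same-numbered libraries of different groups correlated with a median of -0.01 (range -0.28 to 0.32). Libraries of different number had a median of 0.0023 (range -0.32 to 0.42), so these medians showed no pairing by replicate number. The correlation was above 0.1 in 23 of 135 same-numbered pairs, a share not computed for the others. The study grew its plants in randomized blocks, and whether the replicate numbers mark those blocks is not given in the sources used here. The planned cold comparisons were not run. Depth limited the control, heat and drought levels, which rest on 1 to 13 reads per library.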

Other observations

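The ranking of the genes most like LsAP2.21 depended on the measure. Of the 5 AP2/ERF genes with the highest Pearson's r over 30 libraries, 1 was among the 5 highest by Spearman's rho, 3 by Pearson's r over the 10 group means and 2 by Pearson's r within the 9 salt libraries. Spearman's rho over the 30 libraries was 0.71 for LsERF182 and 0.60 for LsERF015, below their Pearson's r of 0.98 and 0.97.

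In the wider AP2/ERF family, genes with larger differences than LsAP2.21 between salt and heat numbered 45 of 152 at 5 h, 31 at 24 h and 28 at 48 h, while LsAP2.21 stood 11.7%, 4.46% and 4.24% from the top among all genes tested. Between salt and drought, they numbered 31, 33 and 31, while LsAP2.21 stood 5.15%, 4.75% and 4.40% from the top. At 48 h, 58 of the 152 other family genes were called higher and 30 lower under salt than under heat, and 56 were called higher and 39 lower under salt than under drought. Over all genes tested, 19.8% were called higher and 21.2% lower under salt than under heat, and 19.2% higher and 21.2% lower than under drought.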
